A study of Mus musculus with 32 samples.

Results

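Very long abundant transcripts were the 615 transcript models of 8000 nucleotides or more that had a mean of at least 200 reads over all 32 libraries, of 51884 models in the files. They were chosen by their length and by their mean read count as deposited, so neither of these values is a finding here, and another condition of the selection left out uc007pau.3, uc008ezn.1 and uc007pbo.1 by name. Of 1300 models of that length and 7288 models that abundant, 618 met both conditions before those 3 were left out. At the length limit the shortest members were uc009qqb.1 with 8000 nucleotides and uc008evq.2 with 8001, and the longest abundant models outside it were uc007zrg.1 with 7998 and uc033hlz.1 with 7981. At the limit on reads the nearest members were uc009inv.1 with a mean of 200.8 reads and uc011xmr.1 with 201.3, and just outside lay uc008xus.2 with 199.0 and uc007kyr.2 with 198.7. With 0 of the 51884 identifiers found in the reference gene tables, transcripts are given by identifier, no role is stated for any of them, and neither the sequence of a member nor the markers of a cell type could be shown.

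The libraries came from primary cortical neurons of embryonic CD-1 mice, transduced with doxycycline-inducible lentiviral constructs for TurboID, a biotin ligase that tags proteins close to it. The TurboID-PSD95 construct carried PSD95 elements that place the ligase at postsynapses, with the coding part made from the rat sequence, and the Pan-TurboID construct had no localization signal. Resting neurons (rest) were compared with depolarized ones (dep), which were silenced over 2 hours in tetrodotoxin plus DL-AP5 and depolarized in 55 mM KCl for 1 hour. These were then left for 30 minutes in fresh medium that again held tetrodotoxin and DL-AP5. All groups, the resting ones included, received cycloheximide for 2 minutes and biotin for 30 minutes and were crosslinked with UV light. From each lysate an input and a streptavidin pulldown were sequenced, which gave 8 groups of 4 libraries, numbered by title replicate.

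An mRNA of this length yields many fragments per molecule, so reads compare one transcript between libraries, and levels of different transcripts are compared only per kilobase. In neurons, long mRNAs often carry long untranslated regions, through which RNA-binding proteins act on transport and local translation. PSD95 is the main scaffold of excitatory postsynapses, and a pulldown of biotinylated protein recovers the RNA crosslinked to it. High KCl opens voltage-gated calcium channels and is a standard trigger of activity-dependent transcription in cultured neurons.

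Totals ran from 2949000 to 19320000 reads per library (median 9302000), and a single transcript, uc009sgd.1, took 2.08% to 84.8% of them. Without it the 615 long transcripts held 7.23% to 13.9% of the reads (median 12.5%), or 75590 to 2472000 reads per library. In 6 libraries, all of replicate 3 or 4 by title, uc009sgd.1 exceeded 50% of the reads, and 3 of these were depolarized inputs while none was a resting input. The free-text descriptions of the 8 libraries of replicate 2 name the opposite state to their titles and treatment labels, which were kept. Levels below are CPM, counts scaled to library size with TMM factors over the 32 libraries, and the study's methods call the libraries of a group biological replicates. With bulk RNA, fewer molecules per neuron and fewer neurons that make a transcript cannot be told apart.

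The median length of the members was 9675 nucleotides (quartiles 8694 and 11290), with 341 members under 10000, 158 from 10000 to under 12000 and 116 of 12000 or more. The median member had a mean of 812 reads (quartiles 407 and 1536), and 11 members had more than 10000. Per kilobase, the mean level over the 32 libraries ran from 0.374 to 188 CPM with a median of 7.13 (quartiles 3.70 and 13.4). The 3 highest levels per kilobase were 188 CPM for uc007ihs.1, 138 CPM for uc012btk.1 and 134 CPM for uc007rpr.2. The longest model, uc008kfn.1 with 101674 nucleotides, had the lowest level per kilobase of the 615, 0.374 CPM, and uc012fxx.1 with 83437 nucleotides had 12.03 CPM. The third longest, uc007aon.2, had 24271 nucleotides and 8.60 CPM per kilobase.

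Counts that were estimated rather than whole were the rule for these transcripts. Only 22 of 615 (3.58%) were within 0.001 of a whole number of reads in every library, against 16.2% of the 6670 shorter models that were as abundant. Salmon divides a read that matches several models among them, and 173 members (28.1%) had 0 reads in at least 1 library, against 23.6% of the shorter abundant models. Of those 173, 129 had 1000 reads or more in another library, and 15 had 0 reads in 8 libraries or more. Of the 22 members with whole counts, 1 had a library at 0. The number of members at 0 ran from 0 in replicate 4 of the resting Pan pulldown to 54 in replicate 3 of the resting PSD95 pulldown. All 615 passed the filter on low counts in each fit, and 405 had at least 10 reads in every library.

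Single members differed widely in how well their replicates agreed. The KCl change, averaged over inputs and pulldowns of both constructs within a title replicate, spread least in uc009rko.1, at 0.051, 0.066, 0.0030 and 0.014 on the log2 scale in replicates 1 to 4, a mean of 0.033 ± 0.030 (SD, n = 4). Its level was 53.1 to 87.8 CPM in the resting libraries and 53.8 to 78.3 CPM in the depolarized ones, and the ranges overlapped. The next least was uc008zeg.1, at -0.48, -0.43, -0.36 and -0.44 (mean -0.43 ± 0.051, SD, n = 4), so this average was lower by a similar amount in every replicate. The constructs within it differed. Mean levels went from 250 CPM at rest to 234 CPM after KCl in Pan inputs and from 291 to 183 CPM in PSD95 inputs. In the pulldowns they went from 221 to 178 CPM with Pan and from 243 to 151 CPM with PSD95. At the other end, uc012djx.2 had 0.92 less, 3.41 more, 4.25 less and 3.27 more on the same scale, an SD of 3.68, and 0 reads in 10 libraries. In the resting Pan inputs it had 30.9, 44.8, 7.65 and 0 CPM, and in the depolarized Pan inputs 4.93, 37.4, 0 and 51.7 CPM. The member uc008qyx.1 had an SD of 3.49, 6 libraries at 0 and a highest level of 269 CPM, and its resting PSD95 pulldowns held 74.3, 157, 0 and 152 CPM. Over all members the median SD of this change was 0.273, and 128 (20.8%) had an SD over 1, against 0.276 and 15.7% of the shorter abundant models.

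**Figure D1:**
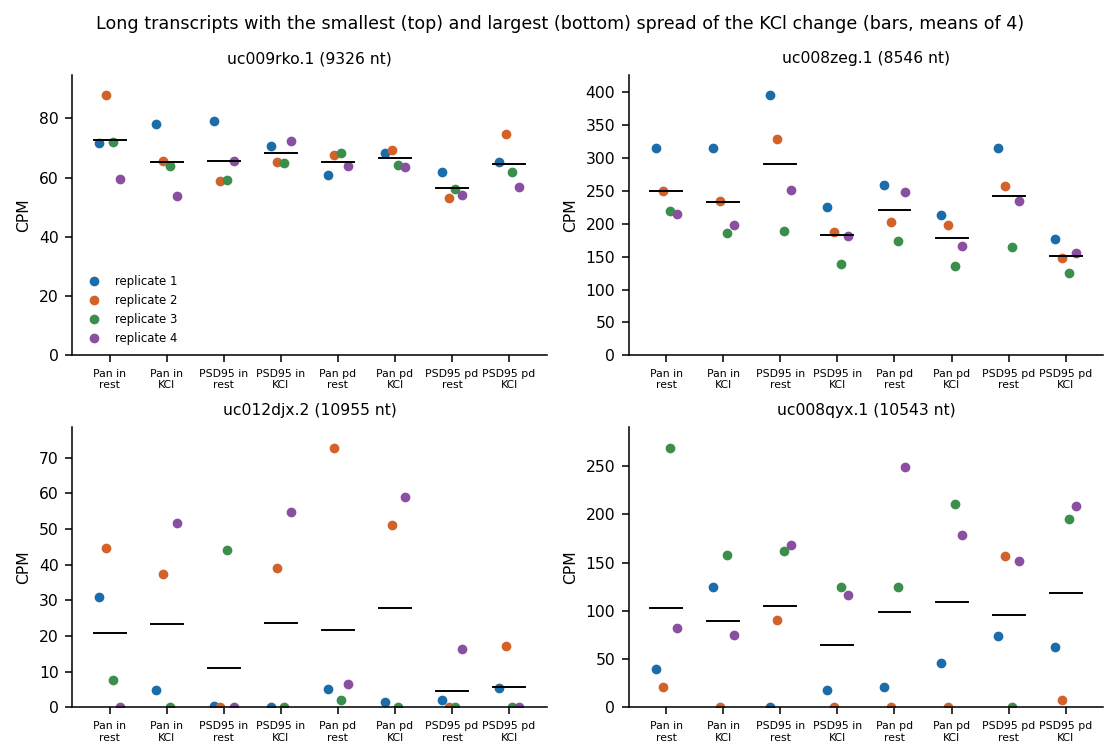
Level in CPM of 4 long transcripts in each library, with groups of fraction, construct and state on the x axis, points coloured by title replicate and bars at the mean of 4; in is input and pd pulldown. The upper 2 had the smallest and the lower 2 the largest SD of the KCl change: uc009rko.1 stayed between 53.2 and 87.8 CPM, while uc012djx.2 went from 0 to 72.9 CPM with no group standing apart.

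The variance of a member's log2 level over the 32 libraries was split into parts for state, fraction and construct, for the interactions among them, and for title replicate. State took a median of 6.62% (quartiles 1.46% and 18.3%) and was the largest of state, fraction and construct in 262 members (42.6%), against a median of 4.52% and 33.1% of the shorter abundant models. Fraction took a median of 8.19%, against 10.6% of the shorter models, and came largest in 295 members (48.0%), against 57.5% of those models. Construct took 0.792%, against 1.12%, and exceeded 30% in 2 members (0.325%), against 0.0450% of the shorter models. State exceeded 30% in 95 members (15.45%) and fraction in 122 (19.8%), against 8.49% and 24.9% of the shorter models. Title replicate took a median of 12.8% and interactions 8.50%. The largest share, a median of 41.3%, lay outside these parts, and it includes any interaction with title replicate. These shares are a description, with no test.

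Differences were tested with limma on all transcripts that passed the filter, with replicate number as a block, and a call is an adjusted p under 0.05. The main fit used voom precision weights and library quality weights, as the study's methods do. At high counts these weights rested on few libraries. In the fit of all 32 libraries, where an even share is 3.13%, the library with the largest weight held a median of 13.7% of a member's total weight, over 50% in 15 members, and a median of 91.0% in the 11 members over 10000 reads. In the input fit 12 members and in the pulldown fit 10 had 1 library over 50%. Counts from limma-trend are therefore given beside those of the main fit. Limma-trend gives every library the same weight, and it was chosen after these weights were seen.

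After KCl, the long transcripts in the inputs were called lower far more often than higher. Of 615, 29 were called higher and 125 lower (4.72% and 20.3%), where 3.45% and 2.74% of all 27887 tested transcripts were. With limma-trend 12 were higher and 50 lower, where 1.04% and 0.861% of all were. Among the shorter abundant models 7.69% were called higher and 6.70% lower in the main fit. The median log2 change was -0.18 over the members, -0.019 over the shorter abundant models and -0.014 over all tested. In each title replicate the members' median lay below that of the shorter abundant models, by 0.14 to 0.19 on the log2 scale (mean difference -0.17 ± 0.025, SD, n = 4 replicates). When a smooth trend of the log2 change on transcript length was subtracted (lowess), 41 members were called higher and 55 lower, where 3.09% and 2.01% of all were, and the median was -0.059. Without the replicate block 15 were higher and 54 lower, where 1.45% and 1.05% of all were, and without replicate 1 a total of 13 were called, where 0.302% of all were. Without the 6 libraries in which uc009sgd.1 exceeded 50% of the reads, 9 were higher and 37 lower, where 0.691% and 0.459% of all were. If the states in the descriptions of the replicate 2 libraries are taken in place of their titles, 0 members were called for the KCl change in inputs, Pan pulldowns or PSD95 pulldowns, where 0.0287%, 0.00307% and 0% of all were. Every KCl call below therefore rests on the titles and treatment labels of those 8 libraries.

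**Figure D2:**
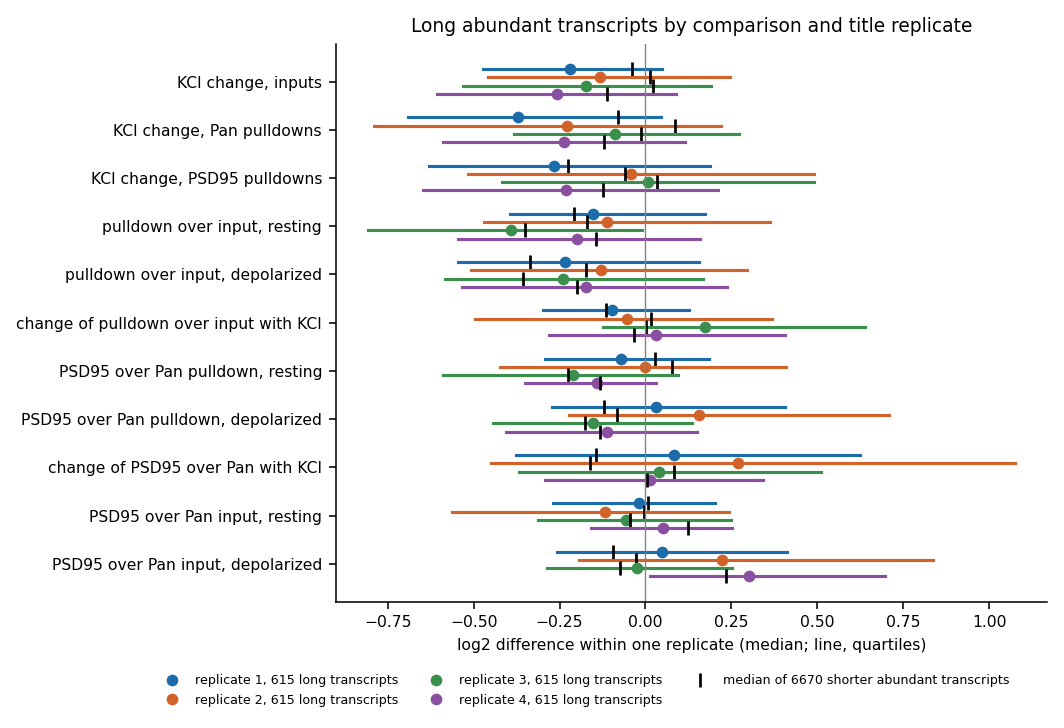
Median log2 difference of the 615 long transcripts within each title replicate (coloured points, with lines from the lower to the upper quartile) for the 11 comparisons on the y axis; black ticks mark the median of the 6670 shorter abundant transcripts in the same replicate. For the KCl change of inputs and Pan pulldowns all 4 points lie left of their ticks, and for pulldown over input in resting neurons they lie on both sides.

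The members with the smallest p among those lower after KCl were uc009lon.2 and uc007ocq.1. In resting neurons uc009lon.2, of 14627 nucleotides, had 795, 780.4, 820.3 and 749.5 CPM in the Pan inputs and 894, 671, 658 and 843 CPM in the PSD95 inputs of replicates 1 to 4. After KCl it had 481, 511, 497 and 431 CPM and 504, 491, 432 and 481 CPM. All 8 depolarized inputs lay below all 8 resting inputs. The fitted log2 change was -0.70 (SE 0.048, adjusted p = 1.27e-05), and with limma-trend -0.69 (SE 0.063, adjusted p = 0.000321). For uc007ocq.1, of 12139 nucleotides, the resting inputs had 292, 201, 215 and 246 CPM with Pan and 286, 264, 193 and 225 CPM with PSD95. The depolarized inputs had 171, 108, 125 and 121 CPM and 174, 149, 113 and 136 CPM. Here too the states did not overlap, and the log2 change was -0.75 (SE 0.056, adjusted p = 2.05e-05), or -0.81 (SE 0.083, adjusted p = 0.000588) with limma-trend.

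Those with the smallest p among the members higher after KCl were uc009hrd.2, of 9071 nucleotides, and uc007rlf.2, of 8780. In the resting inputs uc009hrd.2 had 118, 123, 131 and 146 CPM with Pan and 107, 120.2, 132 and 122 CPM with PSD95. Depolarized inputs had 171, 185, 195 and 208 CPM and 222, 276, 192 and 229 CPM. Every depolarized input exceeded every resting one, with a log2 change of 0.76 (SE 0.063, adjusted p = 4.25e-05) in the main fit and 0.74 (SE 0.083, adjusted p = 0.00105) with limma-trend. The inputs of uc007rlf.2 had 46.2, 29.0, 42.5 and 36.0 CPM with Pan at rest and 103, 71.8, 73.3 and 101 CPM after KCl, and with PSD95 50.8, 38.1, 52.1 and 48.2 CPM at rest and 86.2, 68.0, 71.1 and 97.1 CPM after KCl. Its level rose in each replicate, by 0.96, 1.07, 0.61 and 1.25 on the log2 scale, least in replicate 3 and most in replicate 4, and the fitted change was 1.00 (SE 0.084, adjusted p = 4.31e-05), or 0.97 (SE 0.11, adjusted p = 0.000885) with limma-trend. These 4 members were called in both fits.

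**Figure D3:**
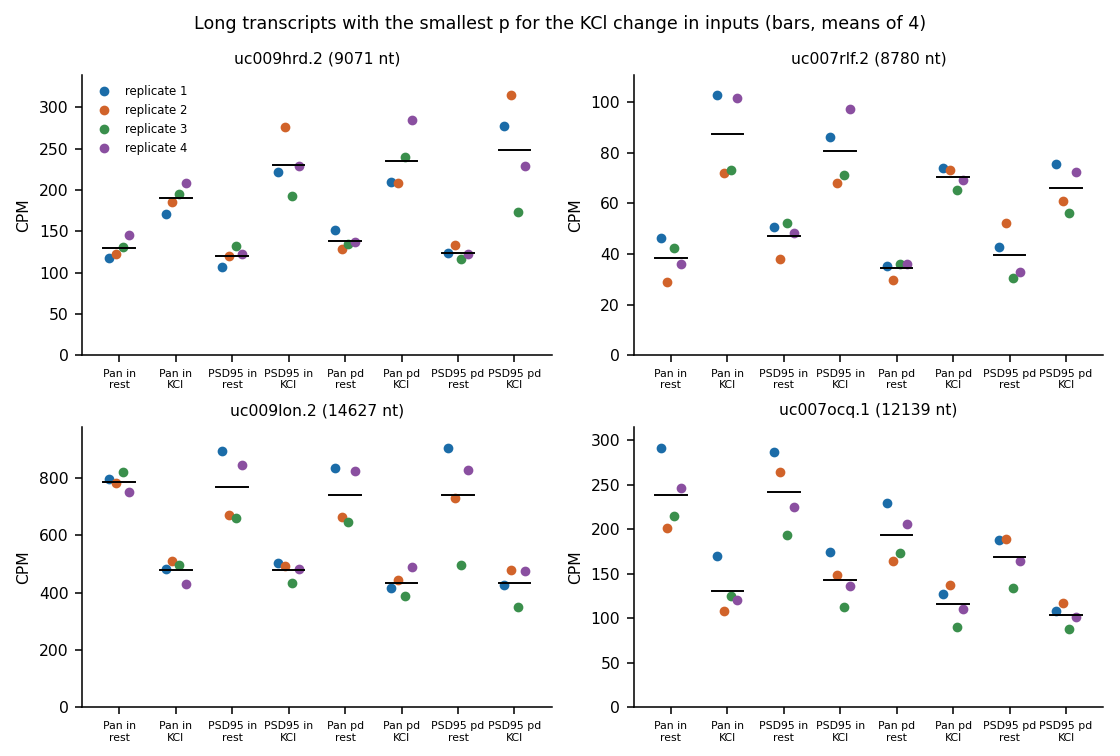
Level in CPM of uc009hrd.2, uc007rlf.2, uc009lon.2 and uc007ocq.1 in each library, with fraction, construct and state on the x axis (in, input; pd, pulldown), points coloured by title replicate and bars at the mean of 4. The upper 2 were higher and the lower 2 lower after KCl in all 4 pairs of groups; in the inputs no depolarized point overlaps the resting points.

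In the pulldowns, too, more members were called lower than higher after KCl. With Pan-TurboID 22 members were called higher and 122 lower, where 3.3% and 2.9% of all 32553 tested were. With limma-trend 8 and 21 were called, where 0.688% and 0.424% of all were. Of the shorter abundant models 6.12% were called higher and 8.58% lower in the main fit. The median log2 change was -0.27 over the members and -0.079 over the shorter abundant models, and the members' median lay below the other by 0.074 to 0.32 within the replicates. With TurboID-PSD95 41 were called higher and 120 lower, where 3.89% and 4.07% of all were, and with limma-trend 13 and 24, where 1.19% and 0.651% were. Of the shorter abundant models 4.86% were called higher and 14.3% lower with PSD95, so a split toward lower calls was found there too. Here the median was -0.19 over the members and -0.15 over the shorter abundant models, and the difference between them within a replicate ran from -0.11 to 0.016. With the length trend subtracted 41 were higher and 58 lower with Pan, where 3.13% and 2.24% of all were, and 83 higher and 49 lower with PSD95, where 4.26% and 3.74% of all were and the members' median turned to 0.060. Without the replicate block 77 and 42 were called in either direction, where 3.1% and 1.66% of all were. Without replicate 1 a total of 1 and 0 were, where 0.0421% and 0.00324% of all were, against 26 to 178 members without any other replicate.

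Among the members called lower, uc009lon.2 had the smallest p in both pulldowns as well. With Pan it had 833, 663, 646 and 824 CPM at rest and 414, 445, 389 and 489 CPM after KCl. With PSD95 it had 905, 731, 497 and 826 CPM at rest and 427, 479, 349 and 476 CPM after KCl. The states did not overlap in either construct, and the log2 changes were -0.81 (SE 0.072, adjusted p = 0.000171) and -0.91 (SE 0.07, adjusted p = 7.5e-05). Per replicate, in order, they were -1.01, -0.57, -0.73 and -0.75 for the Pan pulldowns and -1.08, -0.61, -0.51 and -0.79 for those of PSD95. The member uc007ocq.1 fell in the Pan pulldowns by 0.82 on the log2 scale (SE 0.081, adjusted p = 0.000323), and its replicate 2 moved least, by -0.26. In the PSD95 pulldowns uc008yis.2, of 14277 nucleotides, had 504, 416, 293 and 417 CPM at rest and 292, 251, 231 and 316 CPM after KCl. These values overlapped between the states through replicates 3 and 4, and the change was -0.69 (SE 0.053, adjusted p = 7.5e-05), or -0.56 (SE 0.089, adjusted p = 0.014) with limma-trend.

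Higher in the pulldowns after KCl were uc007rlf.2 and uc009ntz.2 with Pan, and uc009nty.1 and uc009hrd.2 with PSD95. In the Pan pulldowns uc007rlf.2 had 35.4, 29.7, 36.1 and 36.2 CPM at rest and 74.0, 73.0, 65.4 and 69.1 CPM after KCl, a change of 1.02 (SE 0.11, adjusted p = 0.000545) with no overlap. For uc009ntz.2, of 8719 nucleotides, the Pan pulldowns had 298, 248, 205 and 289 CPM at rest and 432, 453, 304 and 516 CPM after KCl, a change of 0.70 (SE 0.082, adjusted p = 0.000769). In the PSD95 pulldowns uc009hrd.2 had 124, 133, 117 and 123 CPM at rest and 277, 314, 173 and 228 CPM after KCl, so that its lowest depolarized library, replicate 3, still exceeded the highest resting one. Its change was 1.11 (SE 0.13, adjusted p = 0.000599). For uc009nty.1, of 10305 nucleotides, they had 90.5, 92.6, 151 and 73.5 CPM and 172, 228, 210.1 and 143 CPM, which overlapped through replicate 3 at rest, and the change was 0.96 (SE 0.11, adjusted p = 0.000497). With limma-trend all 4 of these calls stayed under 0.05, with adjusted p values of 0.0167, 0.0176, 0.0137 and 0.00777 for uc007rlf.2, uc009ntz.2, uc009hrd.2 and uc009nty.1.

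Across the 3 KCl comparisons, 9 members were called higher and 57 lower in all 3, where 0.99% and 1.05% of the 27167 transcripts tested in all of them were. In at least 1 they were 61 and 199, where 7.17% and 7.4% of those transcripts were. With limma-trend 3 were higher and 5 lower in all 3, where 0.225% and 0.136% were, and 24 and 68 in at least 1, where 1.97% and 1.56% were. Of the members called lower in the inputs, 79 were also called lower in the Pan pulldowns, 63.2% of the first list and 64.8% of the second, and 68 in the PSD95 pulldowns, 54.4% and 56.7%. Over all tested transcripts the same shares were 48.9% and 39.7% with Pan and 50.1% and 28.9% with PSD95. Among those called higher the overlap of inputs and Pan pulldowns was 17, 58.6% and 77.3%, and of inputs and PSD95 pulldowns 11, 37.9% and 26.8%, against 49.3% and 44.1%, and 34.4% and 26.1%, over all tested. The comparisons share no library but come from the same lysates, so these overlaps are a description. Called under limma, limma-trend, capped voom weights, edgeR and DESeq2 alike were 9 members higher and 36 lower in the inputs, where 0.585% and 0.563% of all were. In the Pan pulldowns they were 3 and 8, where 0.218% and 0.215% of all were, and in the PSD95 pulldowns 6 and 14, where 0.23% and 0.316% were.

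**Figure D4:**
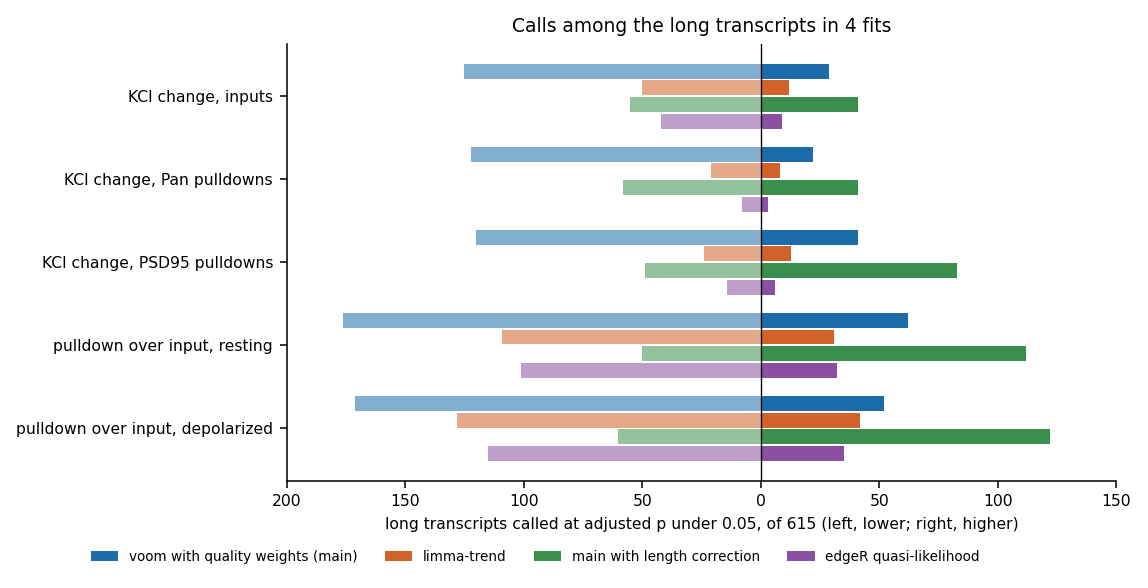
Number of the 615 long transcripts called at an adjusted p under 0.05 (x axis; bars to the left, lower; to the right, higher) in 5 comparisons and 4 fits. Lower calls outnumber higher ones in the main fit, limma-trend and edgeR in all 5 comparisons; with the length trend subtracted they do so only in the KCl change of inputs and Pan pulldowns.

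The streptavidin pulldown was compared with its input to ask which transcripts were recovered with biotinylated protein. In resting neurons 62 members were called higher and 176 lower in the pulldown, where 10.1% and 8.28% of all 34696 tested were. In depolarized neurons 52 were higher and 171 lower, where 10.8% and 9.93% of all were. With limma-trend 31 and 109 were called at rest, where 5.22% and 5.08% of all were, and 42 and 128 after KCl, where 9.42% and 6.24% were. Of the shorter abundant models 29.4% were called lower at rest and 36.7% after KCl, against 28.6% and 27.8% of the members, so that lower calls were not more frequent among the long transcripts. The median log2 difference was -0.18 over the members and -0.19 over the shorter abundant models at rest, and -0.22 and -0.31 after KCl, while it was 0.15 and 0.055 over all tested. Within the replicates the members' median lay 0.055 below to 0.058 above that of the shorter abundant models at rest and 0.027 to 0.12 above it after KCl. Abundant models of 300 to under 1000 nucleotides had medians of -0.73 and -0.70. With the length trend subtracted the split turned to 112 higher and 50 lower at rest, where 9.83% and 7.91% of all were, and to 122 and 60 after KCl, where 11.6% and 9.72% were, and the members' medians turned to 0.059 and 0.097. RLE size factors in place of TMM raised the median of all tested to 0.27 at rest and 0.21 after KCl, and with them 83 members were higher and 127 lower at rest, where 12.4% and 6.31% of all were, and 79 and 114 after KCl, where 13.3% and 6.93% were. Without the replicate block 147 were called at rest in either direction, where 11.2% of all were. Without replicate 1 a total of 114 at rest and 103 after KCl were called, where 5.16% and 6.25% of all were.

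The second longest member, uc012fxx.1, was far above its inputs in the pulldowns. At rest it had 384, 342, 476 and 427 CPM in the Pan inputs and 1138, 1303, 1999 and 1333 CPM in the Pan pulldowns, and 227, 221, 561 and 334 CPM and 802, 952, 2345 and 1028 CPM with PSD95. After KCl it had 234, 307, 602 and 360.0 CPM and 1044, 685, 2299 and 1890 CPM with Pan, and 478, 519, 491 and 517 CPM and 2188, 2101, 2611 and 1928 CPM with PSD95. In every library pair the pulldown was higher, and the lowest pulldown exceeded the highest input. The 2 fits disagreed on it at rest. The main fit, where 1 library held 100% of its weight to the digits given, had 1.59 (SE 0.70, adjusted p = 0.12), and limma-trend had 1.85 (SE 0.16, adjusted p = 4.7e-08). After KCl they had 2.32 (SE 0.79, adjusted p = 0.0367) and 2.02 (SE 0.16, adjusted p = 1.11e-08). It was described as one of the 3 longest members, not chosen for this difference.

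Members with the smallest p for a higher level in the pulldown were uc057boa.1 and uc007bih.2 at rest and uc009rrh.1 and uc009nty.1 after KCl. At rest uc057boa.1, of 15441 nucleotides, had 307, 312, 322 and 386 CPM in the Pan inputs and 473, 451, 465 and 521 CPM in the pulldowns, and 289, 294, 279.8 and 345 CPM and 444, 397, 362 and 462 CPM with PSD95. Within each construct the pulldowns lay above the inputs, with an overlap only across constructs, and the log2 difference was 0.55 (SE 0.054, adjusted p = 7.97e-08), or 0.50 (SE 0.094, adjusted p = 0.000982) with limma-trend. For uc007bih.2 it was 0.40 (SE 0.043, adjusted p = 2.38e-07) and 0.35 (SE 0.072, adjusted p = 0.00236). Its resting fractions overlapped within each construct. With PSD95 its pulldown of replicate 3 had 127 CPM, below the 130 CPM of the input. After KCl uc009nty.1 had 36.6, 42.5, 79.8 and 38.3 CPM in the Pan inputs and 124, 145, 193 and 110.3 CPM in the pulldowns, and 60.1, 82.4, 39.7 and 61.7 CPM and 172, 228, 210.1 and 143 CPM with PSD95, with no overlap. Its difference was 1.55 (SE 0.16, adjusted p = 9.83e-08), and at rest, where its levels are shown in the plot of fraction members, it was 1.44 (SE 0.16, adjusted p = 6.72e-07). The whole counts of uc009rrh.1, of 9198 nucleotides, gave 27.2, 21.2, 38.8 and 41.4 CPM in the Pan inputs and 64.8, 48.9, 59.9 and 100.5 CPM in the pulldowns, and 41.8, 40.4, 30.3 and 41.2 CPM and 93.5, 94.9, 74.4 and 104 CPM with PSD95. None of its pulldowns overlapped the inputs, and its difference was 1.26 (SE 0.12, adjusted p = 5e-08), or 1.17 (SE 0.16, adjusted p = 1.14e-05) with limma-trend.

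Lower in the pulldown, with the smallest p in both states, were uc007ihs.1 and uc007aoj.2, both with over 10000 reads. At rest uc007aoj.2, of 17210 nucleotides, had 1845, 1912, 1667 and 2136 CPM in the Pan inputs and 1167, 1153, 862 and 1210 CPM in the pulldowns, and 2152, 1784, 1490 and 2064 CPM and 1170, 1221, 787 and 1316 CPM with PSD95. After KCl it had 1556, 1641, 1382 and 1375 CPM and 864, 1113, 822 and 1074 CPM with Pan, and 1497, 1440, 1371 and 1553 CPM and 696, 940.2, 732 and 901 CPM with PSD95. The fractions did not overlap in either state. The log2 difference was -0.73 (SE 0.028, adjusted p = 3.78e-15) at rest and -0.79 (SE 0.046, adjusted p = 6.9e-12) after KCl, with 55.1% of its weight in 1 library, and with limma-trend -0.77 (SE 0.068, adjusted p = 9.15e-08) and -0.74 (SE 0.068, adjusted p = 1.02e-07). In uc007ihs.1, the member with the highest level per kilobase, 1 library held 99.96% of the weight. Its differences were -0.48 (SE 0.015, adjusted p = 4.35e-17) at rest and -0.63 (SE 0.038, adjusted p = 1.46e-11) after KCl in the main fit, and -0.52 (SE 0.071, adjusted p = 1.98e-05) and -0.61 (SE 0.071, adjusted p = 2.23e-06) with limma-trend, where the SE was larger. It had 1613 to 2449 CPM in the resting inputs and 931 to 1635 CPM in the resting pulldowns, which overlapped, and 1529 to 1884 and 796 to 1277 CPM after KCl, which did not.

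**Figure D5:**
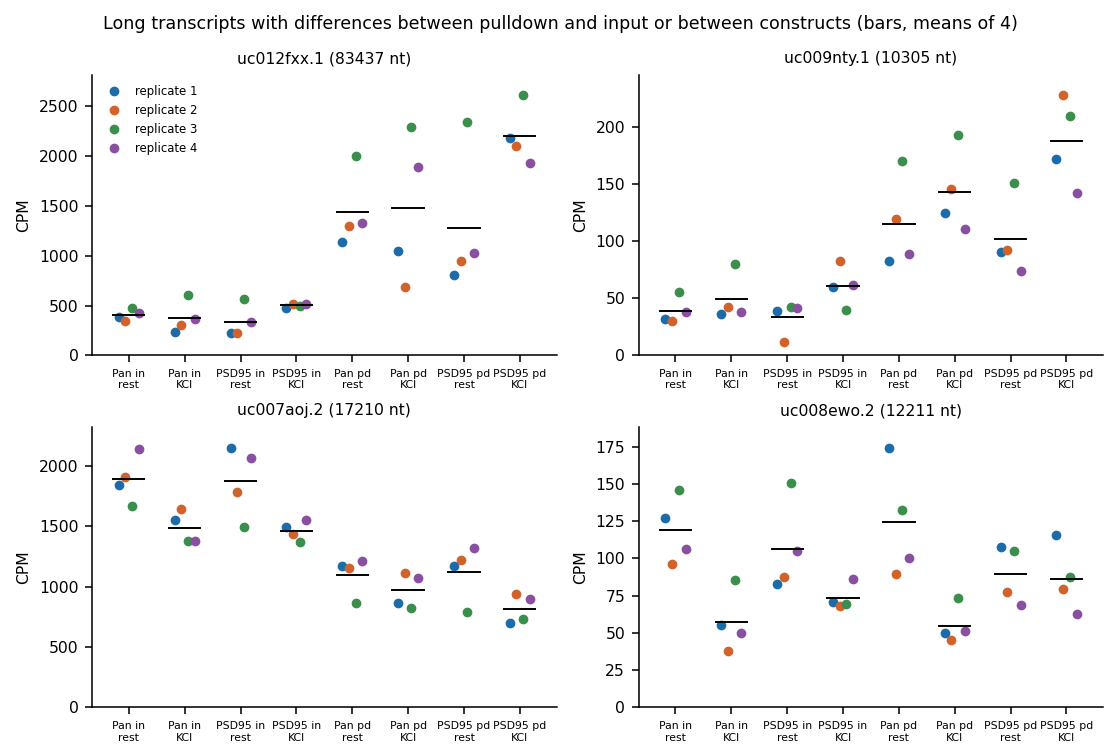
Level in CPM of uc012fxx.1, uc009nty.1, uc007aoj.2 and uc008ewo.2 in each library, with fraction, construct and state on the x axis (in, input; pd, pulldown), points coloured by title replicate and bars at the mean of 4. All pulldown points of uc012fxx.1 and uc009nty.1 lie above all of their input points of the same state, and those of uc007aoj.2 lie below; uc008ewo.2 had a mean of 124 CPM in the resting Pan pulldowns and 54.9 CPM in the depolarized ones.

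Whether KCl changed the pulldown over input was tested as the difference of the 2 states. In the main fit 0 members were called higher and 6 lower, where 0.0173% and 0.144% of all 34696 were. At an unadjusted p under 0.05 there were 31 higher and 78 lower (5.04% and 12.7%), where 3.25% and 5.95% of all and 3.16% and 13.5% of the shorter abundant models were. Limma-trend called 0 members and 0% of all in either direction. Capped weights, edgeR, the fit without the replicate block and the length-corrected fit called 0 members as well. DESeq2 called 3 higher and 1 lower, where 0.951% and 0.859% of all were. The median was -0.030 over the members, -0.091 over the shorter abundant models and -0.064 over all tested. The lowest p belonged to uc008ziv.2, of 15482 nucleotides, at -0.36 (SE 0.056, adjusted p = 0.00429) in the main fit and -0.21 (SE 0.10, adjusted p = 0.84) with limma-trend, and per replicate -0.25, -0.10, -0.11 and -0.38. For uc007bih.2 the values were -0.41 (SE 0.07, adjusted p = 0.0108) and -0.33 (SE 0.10, adjusted p = 0.635), and per replicate -0.44, -0.41, -0.048 and -0.44, where replicate 3 moved least. In the other direction uc007rqc.1, not called, had 0.53 (SE 0.13, adjusted p = 0.104).

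PSD95 over Pan asks which transcripts were recovered more by the ligase at postsynapses than by the one without a localization signal. Among the resting pulldowns 0 members were called in either direction, where 0.00614% of all 32553 were called higher and 0.00307% lower. At an unadjusted p under 0.05 there were 37 higher and 84 lower, where 4.53% and 5.18% of all were. DESeq2 called 4 higher and 0 lower, where 0.553% and 1.03% of all were. Among the depolarized pulldowns 0 were called higher and 1 lower, where 0.0184% and 0.111% of all were, with 56 and 56 at an unadjusted p under 0.05, where 5.76% and 5.27% of all were, and 6 and 6 under DESeq2, where 0.968% and 0.955% were. The change of PSD95 over Pan with KCl was called higher in 1 member and lower in 0, where 0.00922% and 0.0123% of all were. Unadjusted, 89 were higher and 55 lower at p under 0.05, where 6.58% and 5.24% of all were, and DESeq2 called 4 and 2, where 1.38% and 0.974% were. Limma-trend called 0 members in these 3 comparisons, where 0.00307% of all were called higher at rest, 0.00614% higher after KCl, and 0% lower or in the change. The median over the members was -0.096 at rest, 0.0040 after KCl and 0.063 for the change, against -0.025, -0.096 and -0.078 over the shorter abundant models. At rest the members' median minus that of these models was -0.099, -0.078, 0.015 and -0.011 in replicates 1 to 4. For the change it was 0.23, 0.43, -0.041 and 0.010, so that shift came from replicates 1 and 2. Relative to those models the members' median after KCl was higher in each replicate, by 0.020 to 0.24, and by 0.052 to 0.25 in the depolarized inputs, before the pulldown.

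The member called higher in the change was uc008ewo.2, of 12211 nucleotides. Its Pan pulldowns had 174, 89.4, 133 and 100.3 CPM at rest and 50.1, 45.0, 73.3 and 51.0 CPM after KCl. Its PSD95 pulldowns had 108, 77.2, 105 and 69.0 CPM at rest and 116, 79.4, 87.7 and 62.9 CPM after KCl. With Pan the states did not overlap, and with PSD95 they did. Its inputs fell by 0.72 on the log2 scale after KCl (SE 0.11, adjusted p = 0.00192), and its Pan pulldowns by 1.28 (SE 0.14, adjusted p = 0.000472). The PSD95 pulldowns changed by 0.044 (SE 0.12, adjusted p = 0.87). In the inputs, before the pulldown, its PSD95 over Pan was -0.27 at rest (SE 0.12, adjusted p = 0.806). After KCl it was 0.38 there (SE 0.17, adjusted p = 0.478), with replicates at 0.35, 0.84, -0.30 and 0.79. The part of this input difference in the pulldown values was not tested. Per replicate the change of PSD95 over Pan in the pulldowns was 1.90, 1.03, 0.60 and 0.84. The fitted value was 1.32 (SE 0.18, adjusted p = 0.0442), or 1.10 (SE 0.23, adjusted p = 0.724) with limma-trend, where it was not called. The member called lower after KCl was uc007rpr.2, of 11852 nucleotides, which had the highest mean read count of the 615. It had 1766, 1369, 1182 and 1361 CPM in the Pan and 1346, 1185, 1124 and 1254 CPM in the PSD95 pulldowns, which overlapped, and a difference of -0.33 (SE 0.047, adjusted p = 0.03), or -0.18 (SE 0.086, adjusted p = 0.8) with limma-trend.

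Not called but smallest in p were uc008rxz.2 and uc008drr.3 at rest and uc029rxy.2 after KCl. In the resting pulldowns uc008rxz.2, of 11306 nucleotides, had 27.2, 36.3, 42.1 and 33.3 CPM with Pan and 52.5, 55.1, 65.7 and 53.3 CPM with PSD95. The constructs did not overlap, and the log2 difference was 0.84 (SE 0.14, adjusted p = 0.171). In its resting inputs the same comparison had 24.9, 25.4, 57.6 and 48.1 CPM with Pan and 46.3, 33.1, 89.2 and 93.1 CPM with PSD95, higher with PSD95 in each replicate too. For uc008drr.3, of 18573 nucleotides, the difference was -0.46 (SE 0.081, adjusted p = 0.171). For uc029rxy.2 after KCl it was 1.20 (SE 0.22, adjusted p = 0.0604), or 1.02 (SE 0.25, adjusted p = 0.577) with limma-trend. Its replicates were at 1.73, 1.33, 0.47 and 0.50, and the constructs overlapped. Its depolarized inputs had 26.3, 5.85, 49.6 and 14.5 CPM with Pan and 54.8, 23.7, 52.3 and 30.7 CPM with PSD95. These too were higher with PSD95 in each replicate.

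The same construct difference was measured in the inputs, taken before the pulldown, as its background. No member was called there in either state: at rest 0.0323% of all 27887 were called higher and 0.00359% lower, and after KCl 0.00717% and 0.0287%. Unadjusted, 38 were higher and 36 lower at rest, where 3.75% and 2.42% of all were, and 92 and 49 after KCl, where 4.75% and 5.21% were. DESeq2 called 4 and 1 at rest, where 0.667% and 0.513% of all were, and 12 and 1 after KCl, where 1.28% and 0.617% were. Limma-trend called 0 members, where 0.0108% of all were called higher at rest. The medians over the members were -0.018 at rest and 0.12 after KCl. The smallest p values at rest belonged to uc009kem.2, at 0.94 (SE 0.16, adjusted p = 0.135), and to uc007jer.2, at -1.83 (SE 0.39, adjusted p = 0.328), which had 0 reads in 1 depolarized library. After KCl they belonged to uc007igw.2, at 0.62 (SE 0.12, adjusted p = 0.122), and uc008gan.1, at -0.34 (SE 0.065, adjusted p = 0.117), whose replicates split 2 to 2 in sign.

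Members were chosen by length, so values by length class are a description, with no test. For the KCl change of inputs the median log2 change was -0.17 in the 341 members under 10000 nucleotides, -0.18 in the 158 from 10000 to under 12000 and -0.24 in the 116 of 12000 or more. In the same order 18.2%, 19.0% and 28.4% were called lower and 6.45%, 3.16% and 1.72% higher. Taken per replicate relative to the median of the shorter abundant models, the class of 12000 or more was lowest in replicates 1, 2 and 3, at -0.22, -0.27 and -0.28, and not in replicate 4, at -0.14. In the Pan pulldowns 16.1%, 19.0% and 31.9% were called lower, where 2.9% of all were. The medians there, -0.26, -0.24 and -0.31, did not order by length. In the PSD95 pulldowns 16.4%, 22.15% and 25.0% were called lower, where 4.07% of all and 14.3% of the shorter abundant models were. Called higher there were 6.45%, 6.33% and 7.76%, where 3.89% and 4.86% were. The medians were -0.17, -0.21 and -0.24. Relative to the shorter abundant models within a replicate they were -0.031 ± 0.053, -0.033 ± 0.040 and -0.054 ± 0.092 (mean, SD, n = 4 replicates). In replicate 2 the class of 12000 or more was the highest, at 0.056. For pulldown over input the classes did not order by length, with medians of -0.15, -0.22 and -0.19 at rest and -0.19, -0.24 and -0.22 after KCl. The 3 longest members did not share a direction. After KCl uc007aon.2 fell in the inputs by 0.44 on the log2 scale (SE 0.075, adjusted p = 0.00428), from 187 to 224 to 112 to 181 CPM with no overlap. For uc008kfn.1 the same change was 0.22 (SE 0.15, adjusted p = 0.453), with replicates at -0.11, -0.28, 0.74 and 0.60, and for uc012fxx.1 it was 0.24 (SE 0.11, adjusted p = 0.258).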

How the data were processed

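RNA of 16 inputs and 16 pulldowns was quantified. The authors quantified reads with Salmon against mm10 UCSC knownGene transcripts (version not given in the sources used here), and the deposited files hold expected counts per transcript model, with reads that match several models divided among them. These counts were rounded to whole numbers here, and every model was kept, where the study kept the longest per gene. DESeq and limma are also named in the submitters' processing notes.

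Differences were tested in R 4.3.3 by voomWithQualityWeights of limma 3.58.1, after filterByExpr and TMM scaling in edgeR 4.0.16, with terms for group and replicate number, and Benjamini-Hochberg adjustment at 0.05 over all transcripts tested. Input comparisons used 16 inputs, comparisons within pulldowns 16 pulldowns, and those across fractions all 32 libraries. CPM and per-replicate log2 ratios (prior count 2) used TMM factors over all 32. Replicate number was a block because the study processed samples of a replicate together. Residuals of same-numbered libraries correlated with a mean r of 0.138 in inputs (-0.023 to 0.292) and 0.119 in pulldowns (-0.0037 to 0.287, 24 pairs each). For other numbers the mean r was -0.043 and -0.036. Subtracting the group means draws these values below 0 when the same-numbered ones lie above it, so they are no separate baseline. Scripts were tested on simulated data.

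Named members were, per comparison, up to 2 in each direction with the smallest p among those called with the same sign in 4 of 4 replicates, or the smallest p where none was called, beside the longest, the highest per kilobase, those at the thresholds and those whose KCl change spread most and least. The members, lists and rules were chosen with earlier results of these data known. Alternatives were edgeR, DESeq2 1.42.0, other size factors, filters, weights and blocks, a length correction (lowess, span 0.3), the states named in the descriptions, and leaving out replicates or libraries. Limma-trend and voom weights capped at 10 times their median were added after seeing the data. Depth, from 2949000 to 19320000 reads per library, limits what can be detected in members at few reads. Figures were drawn with Python 3.11.15 and matplotlib 3.10.9.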

Additional observations from a re-analysis of the deposited data

Results flagged for a closer look

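For each named member only the groups of the comparisons it was named for were checked. In 5 of these 105 groups of 4 libraries, 1 library stood apart from the other 3 by Dixon's test, and chance alone gives about 1 in 20. In the resting Pan pulldowns uc007rlf.2 had 29.7 CPM in replicate 2, against 35.4 to 36.2 CPM in the others. In the same group uc007aoj.2 had 861.6 CPM in replicate 3, against 1153 to 1210 CPM. For uc009rrh.1 the depolarized PSD95 input of replicate 3 had 30.3 CPM, against 40.4 to 41.8 CPM. The depolarized Pan input of replicate 3 held 79.8 CPM of uc009nty.1, against 36.6 to 42.5 CPM in the other 3. For uc007ihs.1 replicate 3 of the depolarized Pan pulldowns had 1016 CPM, against 1251 to 1277 CPM. In 4 of these 5 the library was of replicate 3, in whose 8 libraries uc009sgd.1 took 28.04% to 78.9% of the reads. The part of that share in these values was not tested. In some groups of these members that were not checked, a library of replicate 2 or 4 lay far from the others. The share of replicate 3 therefore holds only for the groups checked.

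Among the named members, 3 passed the threshold in the test of the difference between states in the main fit. Of all 615, 6 were called lower for the change of pulldown over input, where 0.144% of all tested were. For the change of PSD95 over Pan 1 was called higher, where 0.00922% of all tested were. The pulldown over input differed between depolarized and resting neurons by -0.36 on the log2 scale for uc008ziv.2 (limma adjusted p = 0.00429) and by -0.41 for uc007bih.2 (limma adjusted p = 0.0108), both lower after KCl in 4 of 4 replicates. PSD95 over Pan in the pulldowns differed by 1.32 for uc008ewo.2 (limma adjusted p = 0.0442), higher after KCl in 4 of 4 replicates. With limma-trend their adjusted p values were 0.84, 0.635 and 0.724. In the inputs of uc008ewo.2, before the pulldown, PSD95 over Pan was -0.27 at rest and 0.38 after KCl, neither of them called.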

How the results depend on the processing

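No value changed its direction past the threshold under any alternative run, and 425 values of named members under the alternatives kept their side of it, while 66 fell short of it and 15 passed it. The counts of members called moved more, and those over all tested transcripts moved too, so a count alone shows nothing particular to the members. Counts are given for the KCl change of inputs, of Pan pulldowns and of PSD95 pulldowns, then pulldown over input at rest and after KCl, then the 3 changes and construct comparisons in which few were called. In the main fit they were 154, 144, 161, 238 and 223. EdgeR called 51, 11, 20 and 133 in the first 4 and limma-trend 62, 29, 37 and 140, and both called 0 for the change of pulldown over input, for PSD95 over Pan in depolarized pulldowns and for its change with KCl. Of all tested, edgeR called 178 higher and 171 lower in the inputs and 71 and 70 in the Pan pulldowns. In the PSD95 pulldowns it called 75 and 103, and for pulldown over input at rest 1160 and 1525. With voom weights capped the 3 KCl counts were 84, 56 and 60, and the same 3 comparisons had 0. Over all tested, the KCl calls with capped weights were 717 higher and 484 lower, 936 and 567, and 1006 and 705. Without the replicate block, which is in the main fit, the first 4 counts were 69, 77, 42 and 147 and those 3 were 0. DESeq2 called 155 for pulldown over input at rest, 4 for PSD95 over Pan in resting pulldowns, 12 in depolarized pulldowns, 6 for its change, and 5 and 13 in resting and depolarized inputs. Of all 34696 tested for pulldown over input at rest, it called 4024 higher and 2005 lower. Subtracting the length trend left 96 for the KCl change of inputs, 0 for both changes and 1 for PSD95 over Pan in resting pulldowns. With the states named in the descriptions, 0 members were called in the 3 KCl comparisons, in both changes and in PSD95 over Pan of depolarized pulldowns. Without the 6 libraries dominated by uc009sgd.1, 46 were called for the KCl change of inputs and 0 in both changes and in PSD95 over Pan of depolarized pulldowns. RLE size factors gave 6 in depolarized pulldowns and 5 for the change of PSD95 over Pan. Of all 32553 they gave 12 higher and 66 lower in the first, and 8 and 25 in the second. Without quality weights the members' counts in these comparisons were 0 and 0, and 5 were called in depolarized inputs. Of all 27887 in those inputs, 15 were higher and 61 lower. With no filter on low counts 26 were called for the change of pulldown over input, 5, 25 and 17 for PSD95 over Pan in resting pulldowns, depolarized pulldowns and its change, and 20 and 44 in resting and depolarized inputs. In the same order, calls over all tested were 32 higher and 216 lower, 26 and 20, 64 and 134, and 44 and 54. In the inputs they were 88 and 28 at rest, and 74 and 334 after KCl. Leaving out each replicate in turn gave 13 to 95, 1 to 115, 0 to 178, 114 to 209 and 103 to 204 in the first 5 comparisons, the lowest in each without replicate 1. It gave 0 to 2 for the change of pulldown over input, 0 for PSD95 over Pan in depolarized pulldowns and for its change, and 0 to 1 in depolarized inputs. Of all tested (27120 to 35801), KCl calls were 57 to 447 higher and 25 to 331 lower in inputs. They were 6 to 597 and 7 to 533 in Pan and 1 to 700 and 0 to 1305 in PSD95 pulldowns. Pulldown over input had 800 to 2596 and 958 to 2388 at rest, and 979 to 3039 and 1149 to 2792 after KCl. Its change had 0 to 1 and 2 to 11. PSD95 over Pan had 0 and 0 to 8 in depolarized pulldowns, and 1 to 3 and 1 to 25 in depolarized inputs. With lysate as the block for pulldown over input at rest, after KCl and its change, 228, 215 and 5 were called. Of all 34696 these were 2218 higher and 2405 lower, 2457 and 2852, and 0 and 31. Where fits differ in the number of calls the cause was not tested. Depth limits what can be detected in members with few reads.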
